A study of Mus musculus with 6 samples.

Results

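The regulators of G protein signalling (RGS) are a family of proteins that switch off heterotrimeric G proteins. The 9 members described here, Rgs1, Rgs2, Rgs3, Rgs10, Rgs12, Rgs14, Rgs16, Rgs18 and Rgs19, were taken by symbol from the 24062 gene rows of the count tables. Their values are given in CPM, counts divided by a library size scaled by TMM (a normalisation between libraries) and brought to one common total. They were chosen by their CPM at the 2 stiffnesses, with that comparison already known, so their levels and fold changes are a description and no p-value is given for them. The other 12 family genes with a row, Rgs4 to Rgs9, Rgs11, Rgs13, Rgs17 and Rgs20 to Rgs22, were not members. All 9 members passed the filter on low counts.

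PolyA RNA was sequenced from bone marrow cultures of C57BL/6J mice, 3 samples grown at 50 kPa (called high tension) and 3 at 2 kPa (called low tension). Both groups were marrow of femur and tibia, with no genetic change named, in 6-well plates with 20 ng/ml GM-CSF, the cytokine that drives marrow precursors towards dendritic cells and macrophages, with fresh cytokine on days 3, 6 and 10. The study asked how a static mechanical environment changes transcription in such a culture. The titles call the samples dendritic cells, but the labels name no sort. Separate cultures or animals are not named for the replicates either, so a p-value here reflects the spread among these 6 samples, which may be technical.

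Libraries held 33.8 M to 36.3 M counts. High tension replicates 1 and 2 were the most alike, at a chi-square over its degrees of freedom of 6.71, which is above sampling noise. All other pairs within a group had 126 to 233. On the first principal component the libraries closest to the opposite group were high tension replicate 3 (8.06) and low tension replicate 1 (-13.1). By chi-square low tension replicate 1 was nearer to the 50 kPa libraries (122 to 136) than to low tension replicates 2 and 3 (156 and 213). Its log2 CPM correlated at 0.978 with high tension replicate 3, at 0.970 and 0.967 with high tension replicates 1 and 2, and at 0.975 and 0.973 with low tension replicates 2 and 3. Of 10 dendritic cell markers, Itgax, Cd74, H2-Ab1, Ccr7 and Fscn1 each had over 100 CPM in every library of both groups. Xcr1 was at 0.174 CPM or less in every library. The list was split in direction, with 4 positive and 5 negative fold changes and a median log2 fold change of -0.36. Every 50 kPa library was above every 2 kPa library for Itgax, Cd74 and H2-Ab1, and below for Ccr7, Fscn1, Flt3 and Dpp4. EdgeR called 0 of the 9 tested (8 at an unadjusted p under 0.05, beside 3660 of all 13155 genes tested), and DESeq2 called 3 higher and 4 lower. The summed dendritic cell markers were 11810 to 17612 CPM at 50 kPa and 5329 to 10320 CPM at 2 kPa. The largest parts were Cd74 (mean 8998 CPM at 50 kPa and 4611 CPM at 2 kPa), H2-Ab1 (3867 and 1745 CPM) and Itgax (2399 and 801 CPM). The sum therefore follows these genes and not the list as a whole. In such bulk samples fewer cells of a type and less RNA per cell cannot be told apart.

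When a ligand binds a G protein-coupled receptor, the alpha subunit of the G protein takes up GTP and separates from its beta and gamma partners, and both parts signal until the GTP is hydrolysed. RGS proteins bind the GTP-loaded alpha subunit through the RGS domain and speed that hydrolysis. In leukocytes they shorten responses to chemokines and other attractants. Rgs1, Rgs2, Rgs3, Rgs16 and Rgs18 belong to the R4 subfamily, most of them little more than an RGS domain. Rgs10, Rgs12 and Rgs14 belong to the R12 subfamily, and Rgs19 belongs to the RZ subfamily. On GRCm38 4 members lie on chromosome 1: Rgs2 (143999338 to 144004161), Rgs1 (144242296 to 144249242) and Rgs18 (144752683 to 144775435) in a row on the minus strand, and Rgs16 (153740349 to 153745468) on the plus strand. On plus strands lie Rgs3 (chromosome 4, 62559847 to 62704001), Rgs12 (chromosome 5, 34949445 to 35039644) and Rgs14 (chromosome 13, 55369732 to 55384687). On minus strands lie Rgs10 (chromosome 7, 128373621 to 128418758) and Rgs19 (chromosome 2, 181688419 to 181693977).

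RefSeq promoters on GRCm38.p6 (250 bases before to 50 after a gene's start) were at hand for 6 of the 9 members. Those of Rgs16, the member with the widest difference between the stiffnesses, and of Rgs2, an R4 member whose groups overlapped, are shown 5′ to 3′ on the strand of the gene. Both lie on chromosome 1, Rgs16 at chr1:153740103-153740402 on the plus strand and Rgs2 at chr1:144004100-144004399 on the minus strand. Capitals mark matches to 7 searched motifs.
Rgs16: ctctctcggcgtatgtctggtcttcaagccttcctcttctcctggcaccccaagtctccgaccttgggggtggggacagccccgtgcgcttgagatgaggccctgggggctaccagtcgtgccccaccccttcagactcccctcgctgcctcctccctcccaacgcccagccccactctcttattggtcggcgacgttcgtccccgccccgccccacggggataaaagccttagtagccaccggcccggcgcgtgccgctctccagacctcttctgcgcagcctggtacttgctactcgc
Rgs2: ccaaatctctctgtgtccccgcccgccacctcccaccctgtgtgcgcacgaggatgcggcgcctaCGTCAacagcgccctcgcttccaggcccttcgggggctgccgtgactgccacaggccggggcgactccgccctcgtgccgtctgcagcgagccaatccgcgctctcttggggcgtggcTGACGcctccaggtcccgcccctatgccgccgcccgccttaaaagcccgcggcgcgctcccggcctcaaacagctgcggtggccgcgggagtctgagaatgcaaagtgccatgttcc
The motifs, searched on both strands, were the cAMP response element (CRE) TGACGTCA, its shorter core TGACG, which lies within the full element, the AP-1 site TGANTCA, the TEAD site GGAATG, the NFAT site GGAAAA, and the NF-kB and CArG boxes by name. Rgs2 held 2 such cores, starting 185 and 67 bases before the start, and Rgs16 held no match to any of the 7. The core was found in 20.8% of 32851 promoters, AP-1 in 7.81%, TEAD in 14.7%, NFAT in 23.4%, NF-kB in 8.46%, the CArG box in 1.63% and the full CRE in 1.79%. A match describes letters and not binding, and no match says only that these letters are not in this window.

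Rgs16, a GTPase activator for Gi and Gq alpha subunits that restrains chemokine-driven movement of lymphocytes in mice, was the member with the largest difference. It had 9.68, 9.61 and 11.9 CPM in the 50 kPa libraries, against 0.647, 1.22 and 2.49 CPM in the 2 kPa libraries. The groups were far apart: the lowest 50 kPa value was 3.86 times the highest 2 kPa value. Mean Rgs16 was 10.4 ± 1.30 CPM in 50 kPa cultures and 1.45 ± 0.944 CPM in 2 kPa cultures (SD, n = 3 each), with a log2 fold change of 2.85 ± 0.46 (SE), or 7.19-fold. The 2 kPa libraries differed 3.85-fold among themselves and rested on 25, 51 and 83 counts, while the 50 kPa libraries differed 1.24-fold with 311, 322 and 411 counts. Without low tension replicate 3, the highest of its group, the log2 fold change was 3.47. Of the exon sequence of Rgs16, 10.1% is shared with Gm28513 on the opposite strand. Whether reads were counted by strand is not stated in the labels, so antisense reads may be among the counts.

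**Figure D1:**
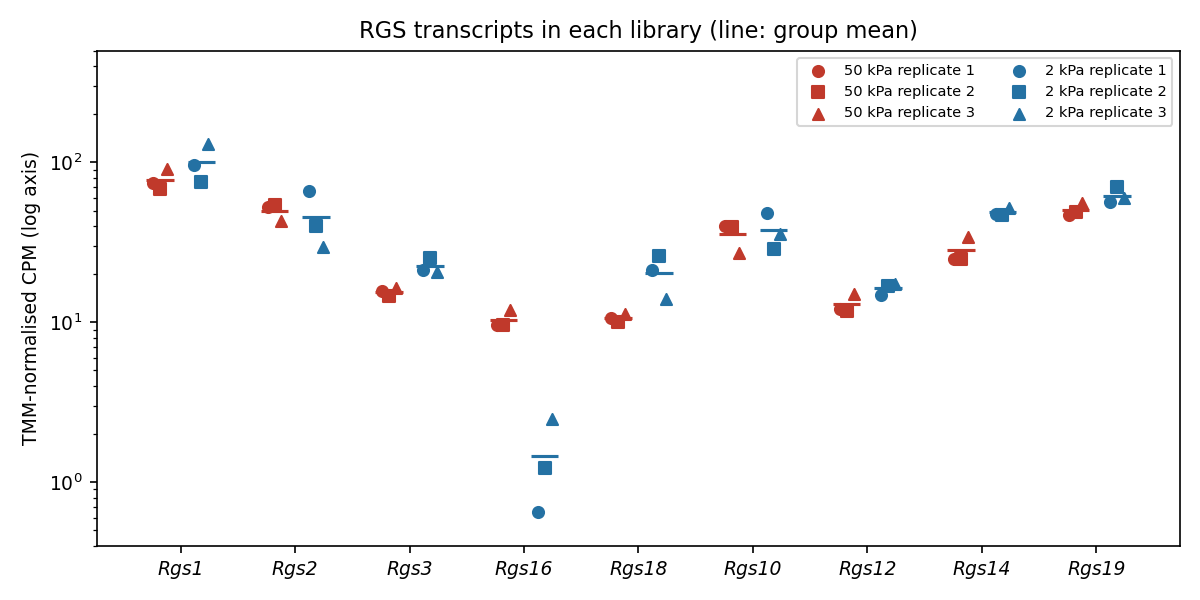
TMM-normalised CPM of the 9 RGS transcripts in each library on a log axis, 50 kPa in red and 2 kPa in blue, with a marker shape for each replicate and a line at the group mean. Rgs16 is the only member whose 50 kPa libraries (9.61 to 11.9 CPM) all lie above its 2 kPa libraries (0.647 to 2.49 CPM).

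Rgs18, an R4 protein abundant in platelets and megakaryocytes, had lower values in every 50 kPa library than in any 2 kPa library. It had 10.6, 10.03 and 11.3 CPM at 50 kPa and 21.2, 26.1 and 13.97 CPM at 2 kPa. Low tension replicate 3 lay nearest the 50 kPa libraries, 1.23 times above the highest of them. Mean Rgs18 was 10.6 ± 0.643 CPM in 50 kPa cultures and 20.4 ± 6.12 CPM in 2 kPa cultures, with a log2 fold change of -0.94 ± 0.23. Of 9 megakaryocyte markers 4 were called lower by edgeR (Ppbp, Itga2b, Gp9 and Gp1ba), beside 1.98% of all genes tested. The 9 summed to 82.1 to 249 CPM at 50 kPa and 231 to 391 CPM at 2 kPa. Pf4, the marker with the highest mean CPM, overlapped between the groups, with 82.8, 62.5 and 204 CPM at 50 kPa and 82.7, 186 and 113 CPM at 2 kPa (-0.13 ± 0.51, edgeR adjusted p = 0.883). Gp9, Gp1ba and Gp1bb, genes of the platelet receptor for von Willebrand factor, were at 0.0933 to 1.45 CPM at 50 kPa and 2.52 to 10.03 CPM at 2 kPa. The part of these cells in the Rgs18 value was not tested.

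Rgs3, an R4 protein that acts on Gi and Gq alpha subunits, showed the same order of groups. Its levels were 15.6, 14.6 and 16.3 CPM at 50 kPa and 21.4, 25.2 and 20.5 CPM at 2 kPa. Both groups were tight and did not overlap, with a spread of 1.12-fold at 50 kPa and 1.23-fold at 2 kPa. The log2 fold change was -0.53 ± 0.12.

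Rgs1 and Rgs2 had overlapping groups. Rgs1, which limits chemokine responses of B cells in mice, had 74.8, 68.1 and 91.4 CPM at 50 kPa and 96.7, 75.9 and 131 CPM at 2 kPa (log2 fold change -0.38 ± 0.22). Low tension replicate 3 was the highest library, and without it the fold change was -0.14. Rgs2, which is selective for Gq alpha subunits, had 52.5, 53.9 and 43.0 CPM at 50 kPa and 66.2, 40.3 and 29.6 CPM at 2 kPa. Its highest and lowest values both came from 2 kPa libraries, 2.24-fold apart, and those at 50 kPa lay between them. The log2 fold change was 0.14 ± 0.29, and it was below 0 with total counts as the scaling (-0.017) and without low tension replicate 3 (-0.095), and farthest above 0 without low tension replicate 1 (0.51 ± 0.18).

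Among the R12 members, Rgs14 was the one with groups that did not overlap. Rgs14 carries, beside its RGS domain, Ras-binding domains and a GoLoco motif that holds inactive Gi alpha subunits. It had 25.0, 25.05 and 34.4 CPM at 50 kPa and 47.5, 46.9 and 52.1 CPM at 2 kPa. High tension replicate 3 was nearest the 2 kPa libraries, whose lowest value was still 1.36 times above it. Mean Rgs14 was 28.1 ± 5.42 CPM in 50 kPa cultures and 48.8 ± 2.85 CPM in 2 kPa cultures, with a log2 fold change of -0.80 ± 0.15, and -0.96 without high tension replicate 3.

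Rgs12, a large protein that has a GoLoco motif and Ras-binding domains like Rgs14, had 12.1, 11.7 and 15.0 CPM at 50 kPa and 14.8, 16.7 and 17.5 CPM at 2 kPa. High tension replicate 3 was just above low tension replicate 1, and the log2 fold change was -0.34 ± 0.14. Of the Rgs12 exon sequence 5.5% is shared with Gm43791 on the opposite strand. Rgs10, a small R12 protein known for restraining inflammatory activation of microglia and macrophages, had 40.1, 39.2 and 27.1 CPM at 50 kPa and 48.4, 28.9 and 35.4 CPM at 2 kPa. The groups were interleaved, with a log2 fold change of -0.083 ± 0.23 that was above 0 when either high tension replicate 3 (0.082) or low tension replicate 1 (0.14) was left out.

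Rgs19, also called GAIP for its binding to a Gi alpha subunit, had 47.1, 49.0 and 55.4 CPM at 50 kPa and 56.5, 70.02 and 59.5 CPM at 2 kPa. Its groups did not overlap but nearly touched, with the lowest 2 kPa value 1.02 times the highest 50 kPa value. The log2 fold change was -0.30 ± 0.12.

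**Figure D2:**
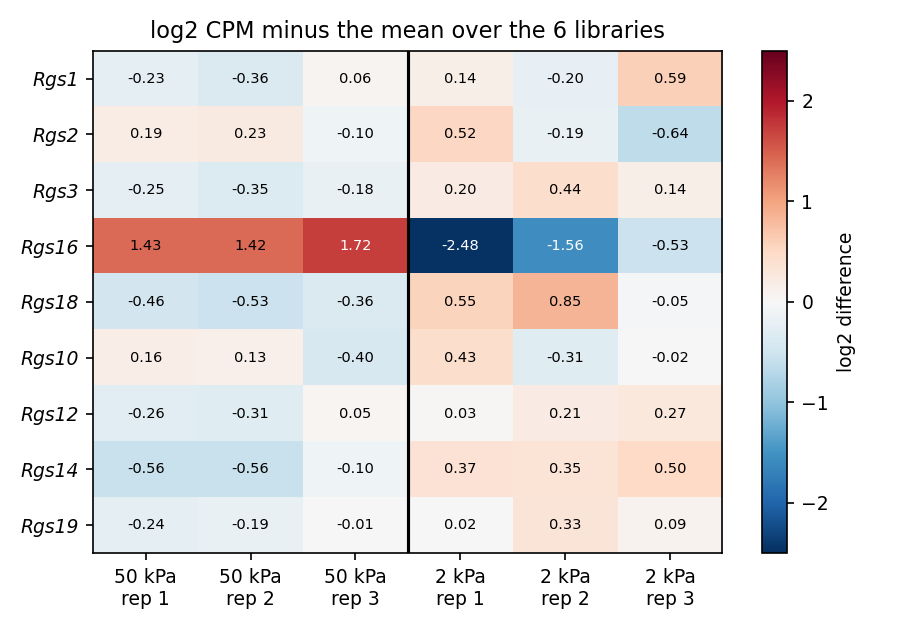
Log2 CPM of each member in each library (50 kPa at left, 2 kPa at right), less its mean over the 6 libraries, with the value written in the cell. Rgs16 runs between 1.72 in high tension replicate 3 and -2.48 in low tension replicate 1, and every value of the other members lies within 0.85 of 0.

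In all, 2 of the 9 members had a positive and 7 a negative fold change, with a median of -0.34 beside -0.028 over the 13155 genes tested. At a Benjamini-Hochberg adjusted p under 0.05 in edgeR's quasi-likelihood test 2 members were past the threshold, Rgs16 higher and Rgs14 lower, beside 3.45% of all tested genes (1.47% higher and 1.98% lower). The groups did not overlap in 5 members, Rgs16 above and Rgs3, Rgs14, Rgs18 and Rgs19 below, beside 34.1% of all genes (17.2% above and 16.9% below). Since the members were named with this comparison known, nothing is read from these counts. Calls over all genes depended on single libraries: without high tension replicate 1 or 2 edgeR called 0 genes (2080 and 2062 at an unadjusted p under 0.05), without low tension replicate 2 it called 1 of 13255 and without low tension replicate 3 it called 3 of 13351. No member was among them, while the fold changes in these 4 fits ran between -0.83 and -0.70 for Rgs14 and between 2.73 and 3.47 for Rgs16. Without low tension replicate 1, where 511 of 13362 genes were called, Rgs14 was not past the threshold, and without high tension replicate 3, where 333 of 13418 were called, Rgs16 was not. DESeq2 on all libraries called 1 member higher and 3 lower, beside 2335 of 17909 genes.

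**Figure D3:**
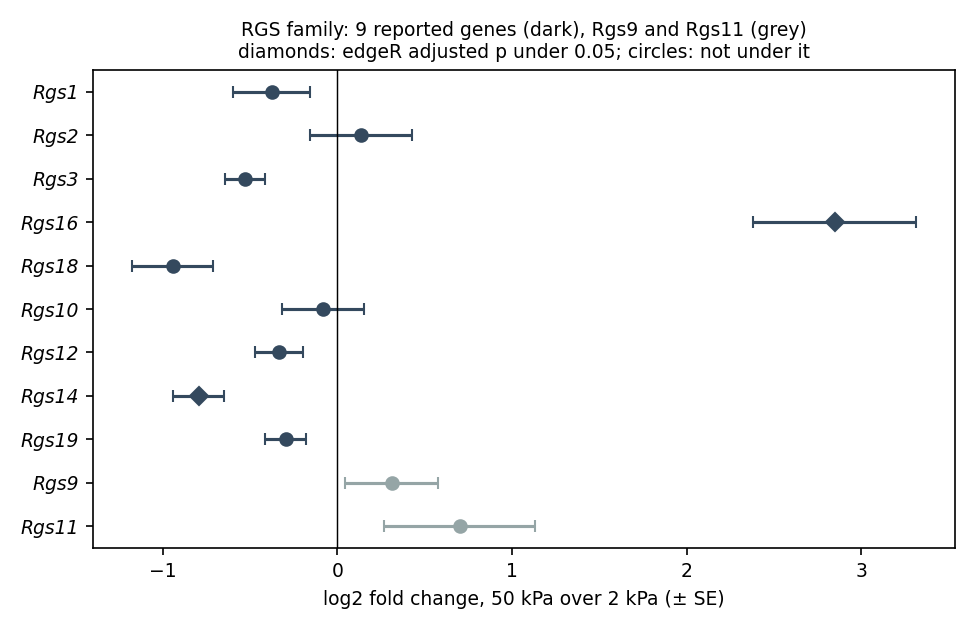
Log2 fold change of the 50 kPa over the 2 kPa libraries with its standard error for the 9 members (dark) and for Rgs9 and Rgs11 (grey), with diamonds for an edgeR adjusted p under 0.05. Rgs16 stands at 2.85, and the other members lie between -0.94 and 0.14.

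Rgs9 and Rgs11 were the other family genes that passed the filter, both of the subfamily that pairs with the beta subunit Gnb5 and is best known from retina and brain. Rgs11 had 27.2, 32.0 and 18.8 CPM at 50 kPa and 26.6, 12.9 and 8.41 CPM at 2 kPa (log2 fold change 0.70 ± 0.43, edgeR adjusted p = 0.328). Low tension replicate 1 lay among the 50 kPa libraries. Rgs11 shares exon sequence with Arhgdig on the opposite strand. Rgs9 had 1.22 to 1.77 CPM at 50 kPa and 0.912 to 1.41 CPM at 2 kPa (0.31 ± 0.27, edgeR adjusted p = 0.472), and Gnb5 itself stood at 0.24 ± 0.21 (edgeR adjusted p = 0.471). Of the other 10 family genes, 4 had 0 counts in all 6 libraries and the highest value was 0.216 CPM, for Rgs5 in low tension replicate 2.

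Levels can be compared between genes once divided by exon length, here merged over the GENCODE vM21 transcripts of each gene. On this scale of CPM per kb Rgs19 had the highest mean in both groups, 22.6 ± 1.97 at 50 kPa and 27.8 ± 3.18 at 2 kPa, followed by Rgs10 at 20.7 ± 4.23 in 50 kPa cultures and 21.97 ± 5.80 in 2 kPa cultures. The ranges of these members overlapped in both groups, and with the length of the longest transcript Rgs10 came first. On that length Rgs14 also moved ahead of Rgs1 and Rgs2 at 2 kPa, and Rgs3 ahead of Rgs12 at 50 kPa. Per kb of merged exons the order at 50 kPa, after Rgs19 and Rgs10, ran Rgs2 (13.7 ± 1.64), Rgs1 (11.2 ± 1.73), Rgs14 (6.64 ± 1.28), Rgs18 (5.24 ± 0.317), Rgs16 (4.44 ± 0.555), Rgs12 (1.53 ± 0.212) and Rgs3 (1.44 ± 0.0826). The ranges of the neighbours Rgs2 and Rgs1, Rgs18 and Rgs16, and Rgs12 and Rgs3 overlapped there. At 2 kPa it ran Rgs1 (14.6 ± 4.03), Rgs2 (12.5 ± 5.19), Rgs14 (11.5 ± 0.671), Rgs18 (10.1 ± 3.01), Rgs3 (2.07 ± 0.232), Rgs12 (1.93 ± 0.160) and Rgs16 (0.622 ± 0.404). In these libraries every neighbour overlapped the next except Rgs18 with Rgs3 and Rgs12 with Rgs16. Rgs16 was thus seventh of 9 at 50 kPa and last at 2 kPa.

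The 9 members together came to 87.9, 87.2 and 87.8 CPM per kb at 50 kPa and to 111, 99.1 and 98.7 CPM per kb at 2 kPa. On merged exon length, the only length these sums are given for, the 50 kPa sums lay within 1 CPM per kb of each other. They were below all of the 2 kPa sums. Rgs16 made up 4.71, 4.71 and 5.79% of the sum at 50 kPa and 0.248, 0.528 and 1.08% at 2 kPa. With the longest transcript as length these shares were 3.13, 3.13 and 3.95% at 50 kPa and 0.164, 0.356 and 0.714% at 2 kPa. Rgs14 made up 6.70 to 9.24% at 50 kPa and 10.1 to 12.5% at 2 kPa, and Rgs18 5.66 to 6.35% at 50 kPa and 6.97 to 12.98% at 2 kPa (3.76 to 4.33% and 4.605 to 8.75% with the longest transcript). Rgs19 had a mean share of 25.8% at 50 kPa and 27.2% at 2 kPa, and Rgs10 of 23.7% and 21.1% in the same order of groups.

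**Figure D4:**
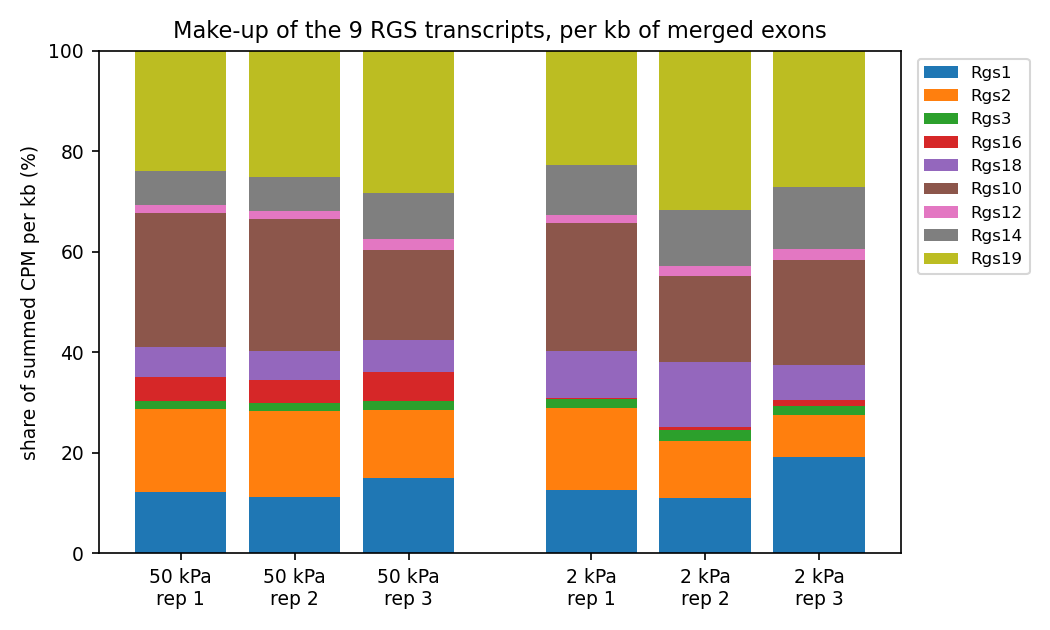
Share of each member in the summed CPM per kb of the 9 members, as stacked bars from 0 to 100% for each library, 50 kPa at left. The Rgs16 band (red) is 4.71 to 5.79% high at 50 kPa and at most 1.08% at 2 kPa.

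The genes with the most similar course over the 6 libraries were found for the 4 members with the widest range, as the smallest root mean square difference in log2 CPM, each gene less its own mean, among 9594 genes of at least 5 CPM. For Rgs16 they were Wnk2 (0.28), Tmeff1 (0.42) and Tnc (0.48). Those of Rgs18 were Exosc2 (0.077), Itgb7 (0.11) and Larp7 (0.11), and those of Rgs2 were Ank (0.065), Tcf7l2 (0.072) and Habp4 (0.073). Tnfrsf4 (0.063), Ogfrl1 (0.080) and Sh2d3c (0.11) came nearest to Rgs14. The nearest gene to Rgs16 was farther from it than the nearest gene to any of the other 3.

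The remainder of the pathway was taken from 11 lists of receptors, G protein subunits, regulators and effectors, Rgs9 and Rgs11 among them. Of 127 genes tested, 6 rose and 4 fell at 50 kPa by edgeR (adjusted p under 0.05), or 7.87% beside 3.45% of all genes, with a median log2 fold change of -0.025. DESeq2 called 14 higher and 18 lower. An unadjusted edgeR p under 0.05 was found for 50 of the 127, beside 3660 of all 13155 genes tested. The counts at that threshold in the lists below are to be read beside this share of all genes. Where fewer than 2 genes of a list were called, those with the highest mean CPM, not corrected for length, are also given. Scaling by total counts put the median of all tested genes at -0.16; in that fit the pathway split was 0 higher and 4 lower, and over all genes 77 higher and 257 lower in place of 194 and 260. With upper-quartile factors it was 2 higher and 4 lower. All 10 kept their direction in each of 16 other fits that tested them, but 0 were called in the 4 fits above that called 0 to 3 of all genes.

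**Figure D5:**
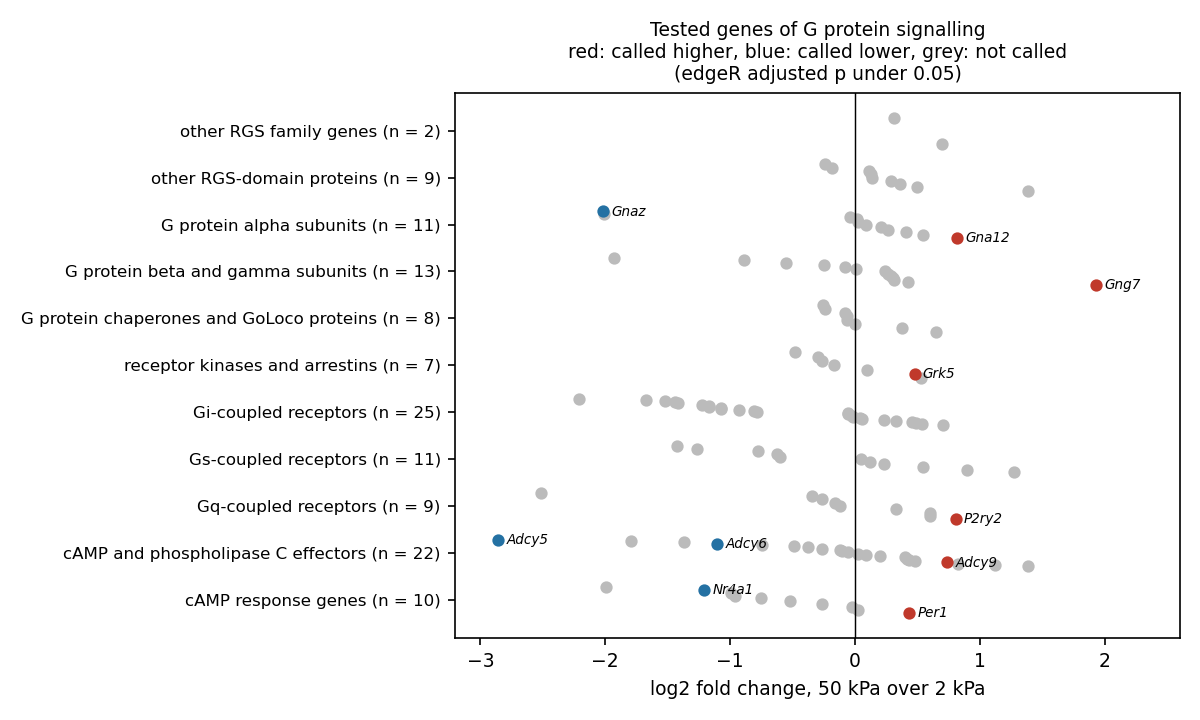
Log2 fold change, 50 kPa over 2 kPa, of each tested gene in 11 lists of G protein signalling, with genes called higher in red, called lower in blue and not called in grey. The 10 called genes are named and run between -2.86 for Adcy5 and 1.93 for Gng7.

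Receptors stand at the head of the pathway. P2ry2, a Gq-coupled receptor for ATP and UTP, rose to 20.8, 18.4 and 15.2 CPM at 50 kPa, against 9.78, 10.9 and 10.4 CPM at 2 kPa (log2 fold change 0.81 ± 0.14, edgeR adjusted p = 0.0452). It was 1 of 9 tested Gq-coupled receptors and the single receptor in the 3 lists that edgeR called; DESeq2 called 1 Gq-coupled receptor higher and 1 lower. Ptafr, the receptor of platelet-activating factor, stood at -0.35 ± 0.45 (edgeR adjusted p = 0.632). None of 25 Gi-coupled receptors was called by edgeR, with 12 at an unadjusted p under 0.05, 17 of 25 fold changes negative and a median of -0.79, while DESeq2 called 1 higher and 8 lower. Ccr1, a chemokine receptor, stood at -0.018 ± 0.14 (edgeR adjusted p = 0.945). Of 11 Gs-coupled receptors edgeR called 0, with 5 at an unadjusted p under 0.05, and DESeq2 called 2 lower. Ptgir, the prostacyclin receptor, stood at 0.54 ± 0.19 (edgeR adjusted p = 0.14), and Adora2b, an adenosine receptor, at -0.63 ± 0.40 (edgeR adjusted p = 0.344).

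Among 11 G protein alpha subunits 1 rose and 1 fell. Gna12 rose to 31.0, 32.2 and 26.2 CPM at 50 kPa, against 18.3, 16.0 and 16.6 CPM at 2 kPa (0.81 ± 0.12, edgeR adjusted p = 0.0349). Gnaz, an alpha subunit of the Gi class and a substrate of the RZ subfamily, fell to 0.311, 0.597 and 0.492 CPM at 50 kPa, against 1.53, 2.40 and 1.77 CPM at 2 kPa (-2.02 ± 0.33, edgeR adjusted p = 0.0381). Gna12 shares exon sequence with Amz1 on the opposite strand. Gnai2, the main Gi alpha subunit of leukocytes and a substrate of most members, was 910 to 936 CPM at 50 kPa and 775 to 929 CPM at 2 kPa (0.089 ± 0.13, edgeR adjusted p = 0.68), named here after its values were seen. Of 13 beta and gamma subunits Gng7 rose (2.05 to 3.67 CPM at 50 kPa and 0.624 to 1.14 CPM at 2 kPa, 1.93 ± 0.36, edgeR adjusted p = 0.0481), and Gnb1 stood at -0.082 ± 0.12 (edgeR adjusted p = 0.662).

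Other proteins that act on receptors or alpha subunits gave 1 call. Grk5, a kinase that phosphorylates active receptors, rose to 23.2, 23.2 and 22.3 CPM at 50 kPa, against 16.8, 16.8 and 15.8 CPM at 2 kPa (0.48 ± 0.086, edgeR adjusted p = 0.046), 1 of 7 receptor kinases and arrestins. Arrb1, which encodes an arrestin that uncouples phosphorylated receptors, stood at 0.53 ± 0.16 (edgeR adjusted p = 0.108). EdgeR called 0 of 8 chaperones and GoLoco proteins, with 2 at an unadjusted p under 0.05, and DESeq2 called 1 higher. Gpsm3, a GoLoco protein of leukocytes, stood at -0.24 ± 0.11 (edgeR adjusted p = 0.217), and Ric8a, a chaperone of alpha subunits whose exons overlap Bet1l and Sirt3 on the opposite strand, at -0.081 ± 0.092 (edgeR adjusted p = 0.581). Of 9 other proteins in the list of RGS-like domains and their partners edgeR called 0, with 3 at an unadjusted p under 0.05, and DESeq2 called 1 higher. Arhgef1, an exchange factor that is activated by Gna13, was 194 to 208 CPM at 50 kPa and 208 to 238 CPM at 2 kPa (-0.19 ± 0.10, edgeR adjusted p = 0.281). Snx13, a sorting nexin, stood at 0.13 ± 0.089 (edgeR adjusted p = 0.384).

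Among 22 effectors 1 rose and 2 fell, all of them adenylyl cyclases, the enzymes that make cAMP. Adcy9 rose to 20.8 to 22.2 CPM at 50 kPa, against 12.1 to 13.8 CPM at 2 kPa (0.74 ± 0.098, edgeR adjusted p = 0.0348). Adcy6 fell to 50.2, 53.7 and 72.7 CPM at 50 kPa, against 105, 141 and 133 CPM at 2 kPa (-1.10 ± 0.18, edgeR adjusted p = 0.0406). Adcy5, a close relative of Adcy6, was below 1 CPM throughout and fell (-2.86 ± 0.47, edgeR adjusted p = 0.0392). Adcy6 shares exon sequence with Gm29331 on the opposite strand. Of 10 genes known to be induced by cAMP 1 rose and 1 fell by edgeR, while 8 of 10 fold changes were negative (median -0.63), 6 genes had an unadjusted p under 0.05, and DESeq2 called 1 higher and 3 lower. Nr4a1, an orphan nuclear receptor, fell to 6.63, 6.96 and 5.47 CPM at 50 kPa, against 16.4, 14.6 and 13.04 CPM at 2 kPa (-1.21 ± 0.15, edgeR adjusted p = 0.0315). Per1, a clock gene, rose (0.44 ± 0.075, edgeR adjusted p = 0.0434), with 59.0 to 62.8 CPM at 50 kPa and 44.5 to 46.3 CPM at 2 kPa.

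Markers of some other cell types, but not of all, differed between the stiffnesses in the same libraries. B cell markers are given beside Rgs1 and Rgs14, which are known in lymphocytes. EdgeR called 8 of the 9 lower (adjusted p under 0.05), beside 1.98% of all genes tested. The 9 B cell markers summed to 24.8 to 105 CPM at 50 kPa and 869 to 1396 CPM at 2 kPa. Vpreb3 was at 0 in 2 of the 50 kPa libraries. Neutrophil markers were called lower by edgeR in 6 of 9, with sums of 833 to 1575 CPM at 50 kPa and 3699 to 7213 CPM at 2 kPa. In the 4 fits above that called 0 to 3 of all genes, 0 markers of B cells, neutrophils or megakaryocytes were called. T and NK cell markers, beside Rgs1 and Rgs16, had 0 calls by edgeR among 6 tested (3 at an unadjusted p under 0.05, and 0 calls by DESeq2) and summed to 5.82 to 8.93 CPM at 50 kPa and 8.08 to 8.57 CPM at 2 kPa over 8 genes, with Gzma at or near 0. Basophil and mast cell markers had 0 calls by edgeR among 8 (8 at an unadjusted p under 0.05, all with negative fold changes, and 7 called lower by DESeq2) and summed to 42.2 to 151 CPM and 224 to 747 CPM in the same order of groups. Macrophage markers had 0 calls by edgeR among 10 (5 at an unadjusted p under 0.05, and 4 called higher by DESeq2). Fold changes were positive for 8 of the 10 and negative for 2. Every 50 kPa library was above every 2 kPa library for 6 of them. The 10 summed to 5220 to 6024 CPM at 50 kPa and 2029 to 3953 CPM at 2 kPa. The part of these cells in the RGS values was not tested.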

How the data were processed

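The deposited values are read counts per gene symbol made by the authors, in a table for each of 6 libraries. The tools edgeR 3.16.5 and 3.8.6, HTSeq 0.6.1p2, TopHat2 2.0.11 and FastQC 0.11.2 and the builds hg19 and mm10 appear, with no role, per the submitters' processing notes. Annotation and strand setting: not given in the sources used here. Per the labels' protocols libraries were made with a directional NEBNext kit.

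Samples were grouped by title. In R 4.3.3, edgeR 4.0.16 was run with filterByExpr (minimum count 10, minimum total 15), TMM factors, glmQLFit and glmQLFTest, on a design of stiffness alone, with Benjamini-Hochberg adjustment across the 13155 genes tested. A standard error is the log2 fold change divided by the square root of F. Alternatives used DESeq2 1.42.0, limma 3.58.1, other scalings and filters, replicate number as a block, and fewer libraries. CPM use TMM-scaled library sizes, and counting error adds most to low values such as Rgs16 at 2 kPa. Coordinates and lengths are from GENCODE vM21 on GRCm38, and promoters are from RefSeq.

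The members and lists were chosen with earlier results of these data known. Of each pathway list the text names the called genes, at most 4, and up to 2 in all of those with the highest mean CPM where fewer than 2 were called; 1 gene this rule names is not reported here. Gnai2, Gnb5 and Rgs5 are given with values outside this rule. For the 4 members with the widest range the 3 nearest genes are named.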

Additional observations from a re-analysis of the deposited data

How the results depend on the processing

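Of 144 member fold changes under 16 alternatives, 140 kept their sign; the other 4 belong to Rgs2 and Rgs10 and are given in the report. Counts are of genes past an edgeR adjusted p of 0.05 unless another tool is named, higher and then lower at 50 kPa. Over all genes they were 194 and 260. They came to 77 and 257 with total counts, 20 and 16 with a minimum of 5 CPM in 3 libraries, 1084 and 1251 with DESeq2, and 0 and 0 with high tension replicates 1 and 2 summed, where 2138 genes had an unadjusted p under 0.05. Leaving out each library gave 0 to 255 higher and 0 to 256 lower. Members numbered 1 and 1. They were 0 and 0 at 5 CPM and with the summed replicates, 1 and 0 with no filter, 1 and 3 with DESeq2, and 0 to 1 in each direction with a library left out. Pathway genes numbered 6 and 4. They were 2 and 4 with upper-quartile factors, 0 and 4 with total counts, 0 and 1 at 5 CPM, 14 and 18 with DESeq2, 0 and 0 with the summed replicates, and 0 to 5 higher and 0 to 3 lower with a library left out. With the replicate number as a block 254 and 522 genes, 1 and 1 members, and 3 and 10 pathway genes were called. Deviations from the group mean correlated over genes with r = 0.54, -0.11 and 0.49 for numbers 1, 2 and 3. The labels tie no number to an animal or day, so whether samples of the same number are paired is not known. Total counts moved Rgs3 to -0.67 and Rgs19 to -0.44 (log2). Per kb of the longest transcript the mean levels over all libraries were 4.03 for Rgs3, 41.5 for Rgs10, 2.68 for Rgs12, 16.2 for Rgs14 and 37.2 for Rgs19. The cause of these changes was not tested. Fits that left out libraries or genes also had fewer samples or genes, and the part of that was not tested either. Depth limits Rgs16 at 2 kPa most, with 25 to 83 counts.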
